A study of Homo sapiens with 12 samples.

Results

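The experiment described here is the response of nascent transcription to an siRNA against INTS11 in U2OS-AsiSI cells, across all genes with enough reads. It compares 3 libraries labelled siINTS11 with 3 libraries labelled siCtrl, 6 of the 12 libraries of the series, and 20441 of the 60583 genes in the tables were tested. U2OS is an established human osteosarcoma line, and U2OS-AsiSI is a derivative that carries AsiSI-ER, a restriction nuclease fused to an oestrogen receptor domain. Both groups shared that genotype, both were treated with 4-hydroxytamoxifen (OHT) for 1 hour, which brings the nuclease into the nucleus, and both were sampled 48 hours after transfection. They differed in the siRNA alone, so an effect of the nuclease cannot be read from this pair. The replicates are not said to come from separate cultures, and p-values measure the spread between these libraries, which may be technical. TT-seq gave the nascent RNA: newly made RNA takes up 4-thiouridine for a short time and is fragmented, captured and sequenced. The question given by the study's title is how Integrator bears on the processivity of RNA polymerase II, and the part of it taken up here is which functions, families and loci changed by more than the length of their genes would give.

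Integrator is a complex of many subunits that binds RNA polymerase II near the start of genes. INTS11 is its endonuclease, which cuts nascent RNA, and a phosphatase module attached through other subunits removes phosphates from the polymerase. The complex is known for making the 3′ ends of small nuclear RNAs and for ending transcription early at genes such as immediate early genes, enhancers and other non-coding units.

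Totals ran from 20704611 to 32981069 counts in the 6 libraries, and 28374 to 29778 genes had at least 1 read. Replicates differed by more than sampling noise in every pair (chi-square per degree of freedom from 2.35 to 3.02), so none was merged. INTS11 (chromosome 1, 1311585 to 1324691, minus strand, GRCh38; another gene on that strand overlaps it) stood at 9.87, 11.3 and 10.1 CPM (the count of a gene as a share of its library's total, with totals adjusted by edgeR's TMM factors) under siCtrl and at 9.26, 9.59 and 9.76 CPM in the libraries labelled siINTS11. The siINTS11 values lay below the siCtrl values without overlap, yet the log2 change of -0.13 (SE 0.08) did not pass the test (edgeR adjusted p 0.172), and its direction turned with library totals alone (0.06, edgeR adjusted p 0.551). Relative to genes of the same span, as explained below, the change was -0.20 (SE 0.08, edgeR adjusted p 0.025), a call that was lost with DESeq2 (adjusted p 0.0654). It was also lost without siCtrl replicate 2 (-0.14, edgeR adjusted p 0.158), without siINTS11 replicate 1 (-0.19, edgeR adjusted p 0.0648) and without siINTS11 replicate 2 (-0.20, edgeR adjusted p 0.0531). These reads cover new RNA over the whole gene, and neither INTS11 mRNA nor protein was measured, so the extent of the knockdown is not known from these data and siINTS11 names the libraries so labelled. Of the markers of the labelled cell type, RUNX2, COL1A1 and SPARC were read in every library while BGLAP was at 0. The 10 osteoblast markers together held 804 to 816 CPM, here of the unscaled library total, under siCtrl and 758 to 803 under siINTS11. Blood cell markers, PTPRC and CD14 among them, together held 0.212 to 0.351 and 0.153 to 0.338, the 5 epithelial markers 87.7 to 100.0 and 134 to 150.0, and the 3 endothelial markers 1.69 to 2.3 and 6.8 to 7.68. In the last group PECAM1 and CDH5 rose while KDR stayed near 0, and the 3 neuronal markers, mostly RBFOX3, held 443 to 466 and 651 to 700.0. The part of these marker changes in the results below was not tested.

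In the TMM-scaled fit 13893 genes (68%) passed an adjusted p of 0.05, 7236 higher (35.4%) and 6657 lower (32.6%). Scaling by library totals alone gave 10550 higher and 4024 lower, so directions are relative to a typical gene. The trend on length was then taken out. For each library the level of protein-coding genes was smoothed against the logarithm of their span, the distance from the first to the last annotated base, and the fitted curve entered the test as an offset for every gene. A change beyond the trend is therefore the log2 change of a gene relative to protein-coding genes of the same span, and every value below is of that kind unless it is said to be on the TMM scale. The trend itself ran from 0.28 at a span of 1 kb through 0.11 at 10 kb to -0.25 at 100 kb and -0.41 at 1000 kb. It took 12.5% of the variance of the log2 change across 12053 protein-coding genes, so most of the variation between genes lay off the trend.

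Beyond the trend 13204 genes (64.6%) passed, 7939 higher (38.8%) and 5265 lower (25.8%), and the median absolute change among them was 0.48. At least 2-fold differences were more often rises, with 2166 higher and 519 lower. The same direction was called with and without the trend in 10812 genes. A further 404 genes were called lower on the TMM scale and higher beyond the trend, and 0 the other way round. Over all genes tested the median was 0.07. Protein-coding genes alone were 34.7% higher and 29.7% lower, with a median of 0.02. Lists of protein-coding genes below are to be read against these last values. Lists of other genes are to be read against 38.8% higher, 25.8% lower and a median of 0.07. In the longest decile of protein-coding genes (median span 324 kb) 249 genes were higher and 910 lower on the TMM scale, against 592 higher and 505 lower beyond the trend. In the shortest decile (median span 4.1 kb) the same counts were 697 and 120 against 325 and 309.

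**Figure D1:**
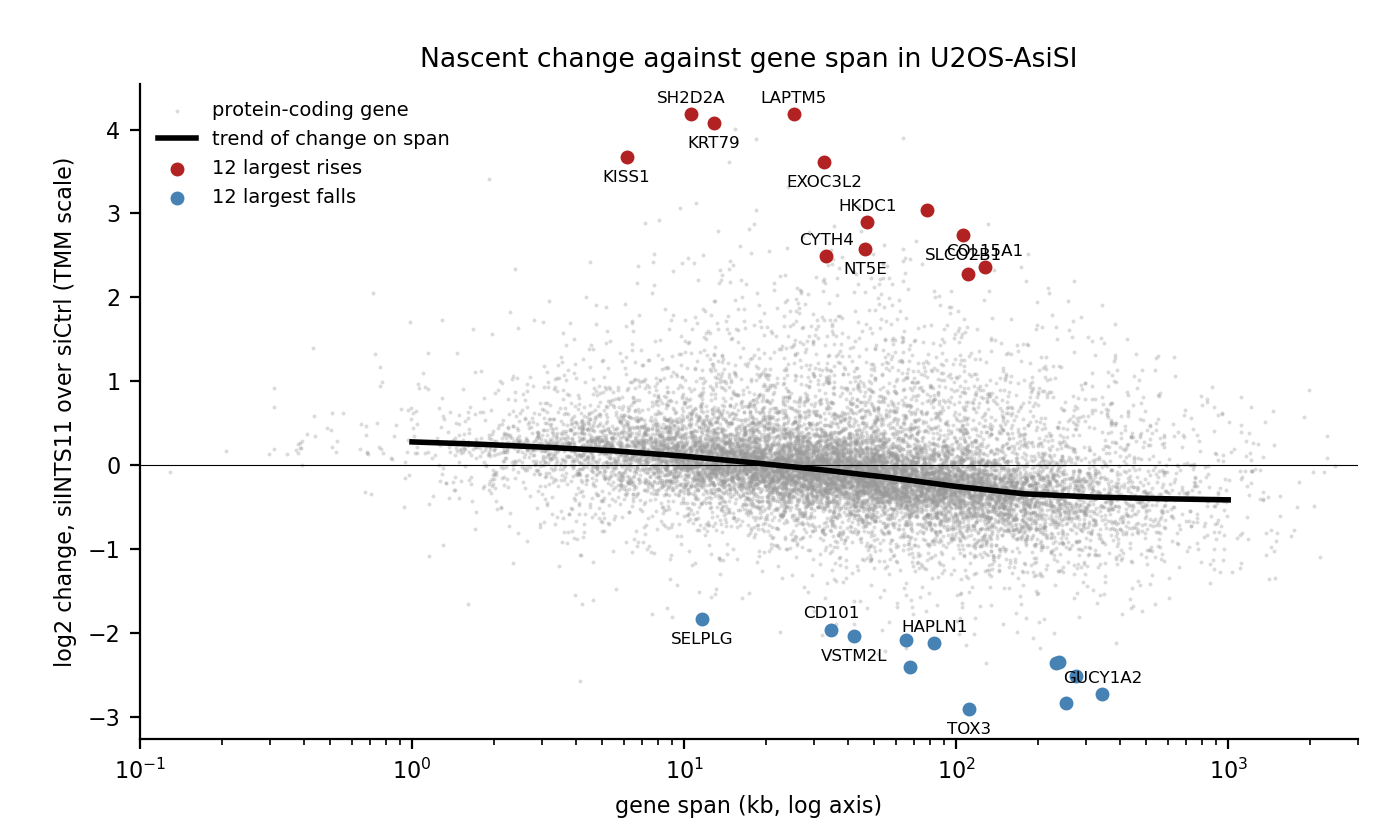
Each grey point is a protein-coding gene, with its span in kb on a log axis and its log2 change on the TMM scale, siINTS11 over siCtrl. The black line is the trend, which falls from 0.28 at 1 kb to -0.41 at 1000 kb, and the 12 largest rises and falls beyond it (coloured, most of them named) stand far from it at short and at long spans alike.

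The largest rises beyond the trend were mostly in genes nearly silent under siCtrl, and the largest falls were in genes that averaged from 3.74 CPM (SELPLG) to 218 CPM (GUCY1A2) there. LAPTM5, which encodes a lysosomal membrane protein best known from blood cells (chromosome 1, 30732469 to 30757774, minus strand, where a second gene overlaps), had 0.452, 0.449 and 0.337 CPM under siCtrl and 7.86, 7.74 and 7.29 CPM under siINTS11. The groups did not overlap, and the change was 4.2 (standard error, SE, 0.16, edgeR adjusted p 4.1e-16). SH2D2A, an adaptor of T-cell signalling (chromosome 1, 156806243 to 156816862, minus strand), went from 0.417, 0.321 and 0.524 CPM to 7.89, 7.24 and 7.75 CPM. The rise of 4.09 (SE 0.17) in SH2D2A was as large in scale as that of LAPTM5, while the blood markers above stayed near 0 in all 6 libraries. KRT79, a keratin (chromosome 12, 52821408 to 52834311, minus strand), went from 0.313, 0.257 and 0.561 CPM to 6.74, 6.56 and 5.74 CPM, a rise of 4.01 (SE 0.19). KISS1, the precursor of kisspeptin, rose by 3.51 (SE 0.14) and EXOC3L2, a relative of an exocyst subunit, by 3.67 (SE 0.13). The other 7 of the 12 largest were ACSBG1 (3.24), SLCO2B1 (3.01), HKDC1 (3.01), NT5E (2.68), COL15A1 (2.66), CYTH4 (2.55) and SP140 (2.54).

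TOX3, a high-mobility-group protein of chromatin (chromosome 16, 52436417 to 52547802, minus strand, with an overlapping gene), showed the largest fall. It had 55, 50 and 47.5 CPM under siCtrl and 7.39, 6.11 and 6.73 CPM under siINTS11, a change of -2.64 (SE 0.07). GUCY1A2, a subunit of soluble guanylate cyclase with a span of 345 kb (chromosome 11, 106674012 to 107018524, minus strand, with an overlapping gene), went from 230.5, 221 and 203 CPM to 32.6, 30.1 and 36.0 CPM. The log2 change was -2.72 on the TMM scale and -2.34 (SE 0.05) beyond the trend. HAPLN1, a link protein that ties hyaluronan to proteoglycans, had 81.4, 73.9 and 67.7 CPM and then 17.1, 15.8 and 18.2 CPM, a change of -1.90 (SE 0.06). In each of these genes the siINTS11 libraries lay together, several-fold under the lowest siCtrl library. NYAP2 (-2.46), PDGFRL (-2.23), GSG1L (-2.14), COL11A1 (-1.99), RIPOR2 (-1.98), VSTM2L (-1.94), SELPLG (-1.92), HTR2A (-1.91) and CD101 (-1.89) complete the 12.

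**Figure D2:**
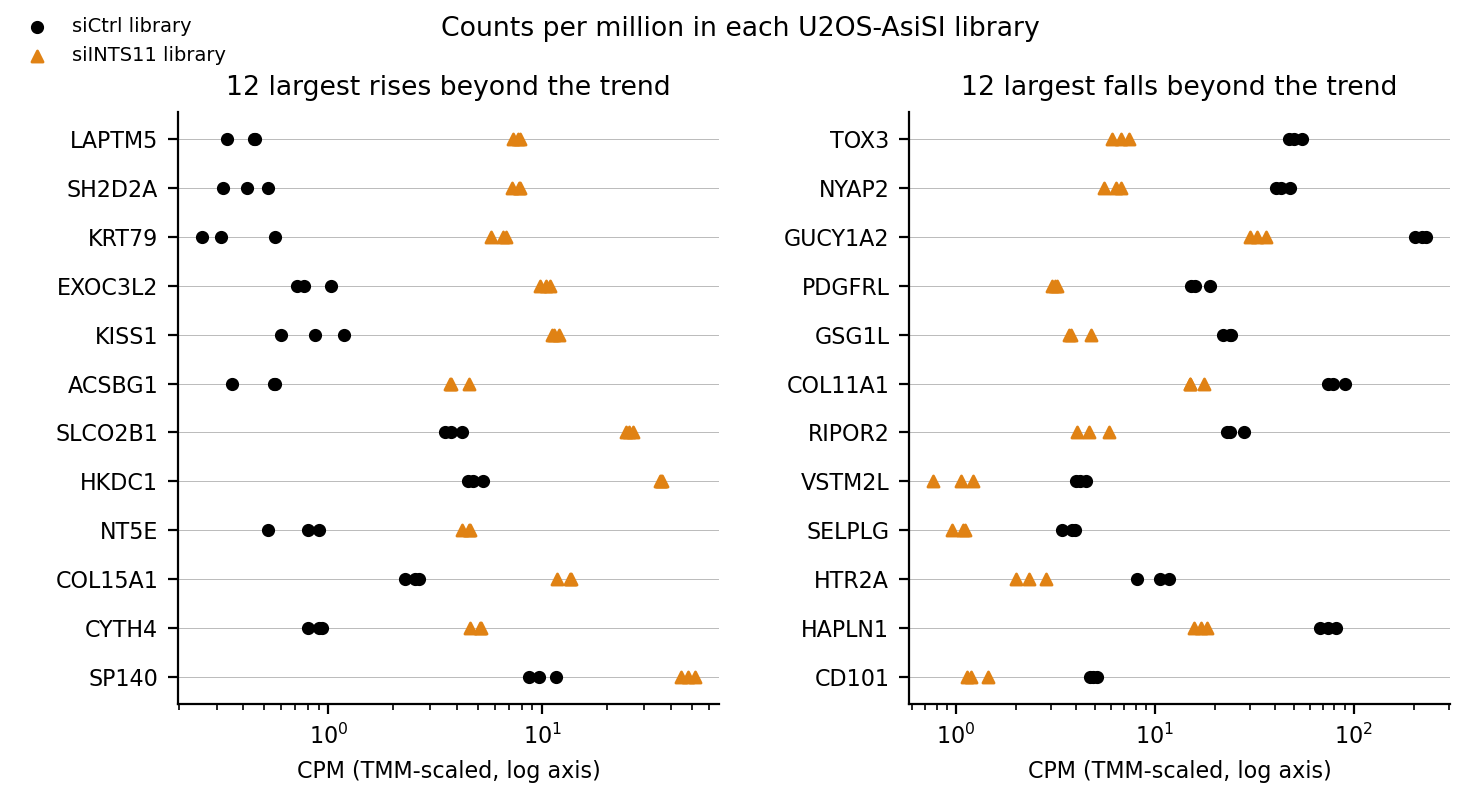
Each row is a gene and each point 1 library, black circles siCtrl and orange triangles siINTS11, in TMM-scaled CPM on a log axis. The groups are apart in all 24 genes; the rises start mostly below 1 CPM (LAPTM5 near 0.4), and the falls end between about 1 CPM (SELPLG) and 30 CPM (GUCY1A2).

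Some genes moved against their length. Among protein-coding genes above the upper quartile of span (from 94.5 kb) the strongest rises were in SLCO2B1, COL15A1, SP140, NPSR1, CLNK and OCA2. SLCO2B1, a transporter of organic anions with a span of 106 kb, had 3.75, 3.50 and 4.19 CPM under siCtrl and 26.5, 25.4 and 24.6 CPM under siINTS11. OCA2, a melanosome membrane protein with a span of 344 kb, had 2.54, 3.53 and 3.26 CPM and then 12.1, 11.4 and 11.6 CPM, a rise of 2.29 (SE 0.10). Both genes rose over a span where the typical gene fell. Among those below the lower quartile (up to 15.6 kb) the strongest falls were in SELPLG, CALHM2, CLDN20, SLC22A13, RAPSN and ARRDC4. SLC22A13, a transporter of urate (chromosome 3, 38265812 to 38278757, plus strand), fell from 18.8, 18.3 and 16 CPM to 6.53, 5.34 and 6.34 CPM, a change of -1.61 (SE 0.09). RAPSN, which clusters acetylcholine receptors at the muscle synapse, fell from 18.1, 17.6 and 16.6 CPM to 5.96, 6.11 and 6.23 CPM, also -1.61 (SE 0.08). ARRDC4, an arrestin-like protein of glucose uptake, went from 8.65, 8.50 and 9.43 CPM to 4.27, 2.67 and 2.54 CPM, a change of -1.55 (SE 0.13).

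The size and direction of the change varied with the level of the gene. Among protein-coding genes averaging below 0.5 CPM over the 6 libraries the median change was 0.45 (149 higher and 37 lower of 393), among those from 1 to 3 CPM it was 0.29, and among those from 10 to 30 CPM it was -0.01 (916 higher and 970 lower of 2871). In those bins long non-coding genes followed the same order but stood higher, with 0.60, 0.42 and 0.27. The gap was smaller above 30 CPM. From 30 to 100 CPM the long non-coding median was 0.05 against -0.04 for protein-coding genes, and above 100 CPM it was 0.07 against 0.01. For some weakly transcribed lists below the median is also given with a trend fitted on span and level together.

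Integrator's own subunits other than INTS11 were mostly higher beyond the trend: 9 of 15 rose, 1 fell, and the median was 0.14 against -0.02 on the TMM scale, at a median span of 61.9 kb. INTS6, a subunit of the module that carries the phosphatase, had 148, 135 and 139.6 CPM under siCtrl and 178, 173 and 165 CPM under siINTS11, a rise of 0.54 (SE 0.04). Its paralogue INTS6L rose by 0.40 (SE 0.05) and C7orf26, the subunit also called INTS15, by 0.48 (SE 0.04). INTS8 was the member that fell, by a change of -0.11 (SE 0.05, edgeR adjusted p 0.036), a call that leaving out single libraries ended. The list score, which is the median over members of their log2 level beyond the trend with siCtrl set to 0 on average, was 0.13, 0.16 and 0.12 in the siINTS11 libraries and between -0.01 and 0.01 in siCtrl.

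Among other parts of the transcription machinery, polymerase subunits and elongation factors split into 11 higher and 5 lower of 39. HEXIM1, an inhibitor of the elongation kinase P-TEFb, rose most clearly, from 13.9, 14.3 and 14.4 CPM to 25.8, 28.1 and 25.9 CPM (0.69, SE 0.06). Cleavage, polyadenylation and termination factors were lower in 10 and higher in 2 of 26, although their median was -0.02. CSTF3, a subunit of the cleavage stimulation factor, changed by -0.37 (SE 0.04) and PCF11, which links 3′-end cutting to termination, by -0.32 (SE 0.04). PPP1R10, which targets a phosphatase to chromatin, rose by 0.65 (SE 0.10). In the exosome and restrictor list 5 rose and 5 fell of 23, and ZC3H4, which restricts early non-coding transcription, rose from 135, 141 and 144 CPM to 180.4, 187 and 192 CPM (0.53, SE 0.04).

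Small nuclear RNA genes read by polymerase II rose in 6 of the 6 members tested, of 17 listed, with a median of 0.50 beyond the trend, 0.35 with a trend on span and level, and 0.85 on the TMM scale. RNU5D-1, a U5 gene, went from 0.278, 0.257 and 0.412 CPM to 2.04, 2.76 and 2.29 CPM, a rise of 2.54 (SE 0.23). RNU1-1, a U1 gene, went from 0.382, 0.353 and 0.412 CPM to 1.26, 1.76 and 1.02 CPM (1.43, SE 0.25), and RNU4-2 rose by 0.50 (SE 0.12). The small RNAs of polymerase III, which Integrator is not known to process, had 0 higher and 0 lower among 11 tested of 17, with a median of -0.05 (0.07 with a trend in 20 bins of span). These genes have near-identical copies, so reads can move between copies, and spans this short lie at the edge of the fitted trend.

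Replication-dependent histone genes, whose RNAs end in a stem-loop, were higher in 14 and lower in 2 of 39 tested, with a median of 0.07 that became -0.02 with a trend fitted on all gene types. On the TMM scale 31 were higher and 0 lower (median 0.36), so the rise was smaller against genes of like span. Of the members tested, 31 held over 0.1 reads per base, and the 8 under it had a median of 0.47; what read density does to the counts was not tested. H2BC4, an H2B gene, went from 21, 22.5 and 25.1 CPM to 52.8, 60.2 and 56.4 CPM, a rise of 1.18 (SE 0.05). H2BC11 rose by 0.80 (SE 0.05) and H4-16 by 0.86 (SE 0.05), while H4C9 fell, with -0.30 (SE 0.08). The octamer ATGCAAAT, a classic element of H2B promoters, lay in 27 of the 65 promoter windows of these genes against 1.77% of all 35116 windows in the RefSeq table (GRCh38.p14, 250 bases before to 50 after a start, both strands). The H2BC4 window (chr6:26123877-26124176, minus strand) is shown because this gene rose most among the 3 histones named; capitals mark the octamer, read here on the other strand, which starts 123 bases before the start.
H2BC4: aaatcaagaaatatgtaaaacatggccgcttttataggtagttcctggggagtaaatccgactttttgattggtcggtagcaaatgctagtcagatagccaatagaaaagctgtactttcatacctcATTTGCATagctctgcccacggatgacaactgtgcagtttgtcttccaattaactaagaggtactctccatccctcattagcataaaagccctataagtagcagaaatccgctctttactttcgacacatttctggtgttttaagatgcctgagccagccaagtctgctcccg

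Several stress and signalling lists were mostly higher beyond the trend. Immediate early genes, which respond to growth factors within minutes, were higher in 18 and lower in 2 of 29 (median 0.20). FOS went from 10.3, 10.4 and 11.8 CPM to 19.6, 22.3 and 18.4 CPM, a rise of 0.68 (SE 0.07). SGK1, a kinase of ion transport, rose by 0.73 (SE 0.06) and ZFP36, which destabilises AU-rich mRNAs, by 0.62 (SE 0.07), while BTG2 changed by -0.23 (SE 0.05). JUN (0.09), DUSP1 (-0.04) and NR4A1 (-0.03) did not pass. As with the histones, 20 of the 29 held over 0.1 reads per base, and the other 9 had a median of 0.62. Feedback inhibitors of the MAPK pathway, themselves targets of it, were higher in 10 and lower in 1 of 13 (median 0.30). DUSP5, a phosphatase of ERK, went from 24.3, 25.5 and 27.1 CPM to 53, 55.2 and 52.7 CPM, a rise of 0.99 (SE 0.05). DUSP7 rose by 0.57 (SE 0.05) and SPRED3 by 0.43 (SE 0.05), and DUSP6, at 0.764, 0.770 and 0.674 CPM under siCtrl, fell (-0.85, SE 0.29, a call lost with DESeq2).

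Targets of NF-kappaB, the transcription factor of inflammation, were higher in 14 and lower in 1 of 21 (median 0.28). CXCL8, the chemokine interleukin 8, went from 3.61, 3.34 and 3.89 CPM to 14.1, 13.4 and 14.4 CPM, a rise of 1.75 (SE 0.09). CCL20, another chemokine, went from 7.64, 8.12 and 8.65 CPM to 23.1, 19.9 and 20.3 CPM (1.29, SE 0.08), and TRAF1, an adaptor of TNF receptors, rose by 1.28 (SE 0.07). IL6 (0.16) did not pass and CCL2 fell, at -0.30 (SE 0.11). The siINTS11 libraries had list scores of 0.29, 0.28 and 0.28 and the siCtrl libraries from -0.06 to 0.04. Interferon-stimulated genes split into 12 higher and 3 lower of 28 tested of 38 (median 0.22), at a median level of 2.47 CPM under siCtrl. OAS3, a sensor of double-stranded RNA, went from 3.72, 4.36 and 4.12 CPM to 8.50, 8.32 and 9.69 CPM (1.19, SE 0.10), and DDX58, the sensor RIG-I, rose by 0.49 (SE 0.04). ISG15 (0.05), IFIT1 (0.14) and STAT2 (-0.04) did not pass, and IFIT5 fell, with -0.64 (SE 0.09). With a trend on span and level the median of this list was 0.11.

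The integrated stress response, in which the factor ATF4 turns on amino acid supply, had 15 of 21 genes higher, 1 lower and a median of 0.44. SLC7A11, the cystine importer, had 70.2, 66.7 and 68.7 CPM under siCtrl and 148, 142 and 137 CPM under siINTS11, a rise of 1.26 (SE 0.04). PHGDH, which opens serine synthesis, went from 103, 103 and 98.8 CPM to 135, 137.8 and 132 CPM (0.65, SE 0.04). STC2, a secreted glycoprotein, went from 1.01, 0.770 and 0.599 CPM to 4.02, 4.48 and 4.54 CPM (2.38, SE 0.17). ATF4 itself (0.01) and MTHFD2 (0.08) did not pass, PSAT1 rose slightly (0.11), and NUPR1 fell, with -0.50 (SE 0.08). The scores were 0.43, 0.46 and 0.42 under siINTS11 and -0.02 to 0.03 under siCtrl. CHAC1, which degrades glutathione, rose from 6.95 to 16.4 CPM on average, by 1.03. Its window (chr15:40953221-40953520, plus strand) is shown because it holds TGATGNAA, the core of the amino acid response element. On either strand this motif lay in 5 of the 30 windows of the list, against 3.62% of all windows. Those windows belong to 5 of the 19 listed genes that have a window. Capitals mark the match, 209 bases before the start, on the other strand.
CHAC1: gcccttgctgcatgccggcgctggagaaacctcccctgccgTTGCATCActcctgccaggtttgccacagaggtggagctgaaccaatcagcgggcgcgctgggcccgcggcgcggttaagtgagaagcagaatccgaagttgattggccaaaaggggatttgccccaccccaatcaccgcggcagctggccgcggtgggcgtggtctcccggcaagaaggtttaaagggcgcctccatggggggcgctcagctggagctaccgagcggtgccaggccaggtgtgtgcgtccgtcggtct

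Target genes of p53 split evenly, with 9 higher and 9 lower of 26 and a median of -0.02. The 12 members under 0.1 reads per base had a median of -0.16. CDKN1A, the p21 inhibitor of the cell cycle, had 115, 106 and 121 CPM and then 135, 151 and 133 CPM (0.19, SE 0.05). GDF15, a stress cytokine that ATF4 also controls, rose by 1.16 (SE 0.14), and TP53INP1 fell from 45.6, 42.0 and 46.7 CPM to 29.1, 29.5 and 32.5 CPM (-0.55, SE 0.05). The list scores of the siINTS11 and siCtrl libraries overlapped. Heat shock chaperones also split, 6 higher and 5 lower of 16, with DNAJA1 higher (0.52, SE 0.04) and the factor HSF2 lower (-0.57, SE 0.05). Autophagy and lysosome genes were higher in 14 and lower in 6 of 27 (median 0.20). MAP1LC3B, the marker protein of autophagosomes, went from 35.2, 36.6 and 38.0 CPM to 53.2, 58.2 and 53.2 CPM (0.57, SE 0.05), and WIPI1, which acts in making them, from 62.0, 57.0 and 61.9 CPM to 30.4, 32.0 and 33.6 CPM (-0.84, SE 0.05).

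Sterol synthesis had the lowest median of the 51 lists, -0.34, with 15 of 20 genes tested lower and 2 higher. MSMO1, a demethylase of the pathway, had 62.9, 58.6 and 62.4 CPM under siCtrl and 40.4, 39.0 and 36.8 CPM under siINTS11, a change of -0.71 (SE 0.05). MVD, the decarboxylase of the mevalonate branch, went from 22.9, 23.6 and 22.8 CPM to 14.4, 15.6 and 15.1 CPM (-0.72, SE 0.06). SQLE, squalene epoxidase, went from 116, 109 and 111 CPM to 83.5, 77.5 and 78.3 CPM (-0.48, SE 0.04). INSIG1, which holds the sterol sensor in the endoplasmic reticulum, also fell (-0.59). HMGCS1, an early enzyme of the pathway, was higher (0.12, a call lost with DESeq2), while the regulator gene SREBF2 fell slightly (-0.12) and SREBF1 (-0.03) did not pass. The list median hardly depended on the trend, being -0.32 on the TMM scale, and list scores were -0.34, -0.37 and -0.35 against -0.01 to 0.02.

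Glycolysis and hypoxia genes went the other way, with 17 of 24 higher, 2 lower and a median of 0.21. EGLN3, an oxygen-sensing hydroxylase induced in hypoxia, went from 8.58, 9.02 and 8.50 CPM to 17.9, 18.8 and 20.6 CPM (1.53, SE 0.08). PKM, pyruvate kinase, went from 326, 320.3 and 331 CPM to 446, 489.6 and 435 CPM (0.54, SE 0.04), and PGK1, phosphoglycerate kinase, rose by 0.56 (SE 0.04). PDK1, pyruvate dehydrogenase kinase 1, fell from 58.7, 54.7 and 54.6 CPM to 39.9, 38.9 and 38.6 CPM (-0.38, SE 0.04). Nuclear genes of the respiratory chain leaned lower, 22 lower and 6 higher of 65 (median -0.08). NDUFA5, a subunit of complex I, changed by -0.58 (SE 0.06) and ATP5PD, of the ATP synthase, by -0.40 (SE 0.06), against a rise of 0.24 (SE 0.04) in NDUFB9. The 27 mitochondrially encoded genes tested all lay above 0.1 reads per base, with 0 higher and 4 lower.

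Mitotic genes fell without exception among those called, with 18 of 31 lower, 0 higher and a median of -0.14. The changes were small: CCNA2, cyclin A2, went from 43.1, 43.6 and 45.9 CPM to 37.5, 39.0 and 38.1 CPM (-0.35, SE 0.04). CDC25C, the phosphatase that starts mitosis, went from 34.3, 31.8 and 28.8 CPM to 21.2, 21.2 and 20.5 CPM (-0.46, SE 0.06), and MAD2L1, of the spindle checkpoint, changed by -0.32 (SE 0.05). TTTGAA, the cell cycle homology element, lay in 23 of the 37 promoter windows of this list against 15.16% of all windows, a short motif that many unrelated windows hold. The CDC25C window chr5:138331828-138332127 (minus strand), 1 of the 2 of its 4 windows with the motif, is shown as the member with the largest fall, with the match in capitals 43 bases after the start.
CDC25C: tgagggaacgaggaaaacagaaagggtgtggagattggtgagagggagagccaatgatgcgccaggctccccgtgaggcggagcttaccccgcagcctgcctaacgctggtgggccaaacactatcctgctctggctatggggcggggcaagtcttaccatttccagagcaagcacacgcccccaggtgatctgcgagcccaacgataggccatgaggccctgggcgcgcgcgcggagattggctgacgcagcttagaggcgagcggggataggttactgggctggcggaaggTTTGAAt

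DNA replication factors were lower in 15 and higher in 7 of 46 (median -0.03), led by MCM6, a subunit of the replicative helicase, which went from 63.0, 64.0 and 62.2 CPM to 35.6, 36.6 and 34.2 CPM (-0.76, SE 0.04). The other helicase subunits, MCM2 to MCM5 and MCM7, lay between -0.03 and 0.00 and did not pass. RRM2, which makes deoxynucleotides, rose by 0.32 (SE 0.04). Homologous recombination and Fanconi genes were lower in 26 of 32 on the TMM scale (median -0.23) but in 13 beyond the trend, with 4 higher and a median of -0.08, so fewer were lower once genes of the same span (median 71.6 kb) were the reference. BARD1, which pairs with a breast cancer susceptibility protein, went from 248, 249.8 and 241 CPM to 164, 164 and 158 CPM (-0.39, SE 0.03). BRCA1 (0.10) passed as higher, though not with DESeq2, and BRCA2 (0.01) did not pass. End joining and break signalling genes were lower in 13 of 26 on the TMM scale and in 4 beyond the trend, with 6 higher. SHLD1, a shieldin subunit that guards break ends from resection, rose from 23.1, 24.8 and 22.3 CPM to 38.8, 39.3 and 40.4 CPM (1.03, SE 0.05), and the kinase gene PRKDC by 0.25 (SE 0.03).

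**Figure D3:**
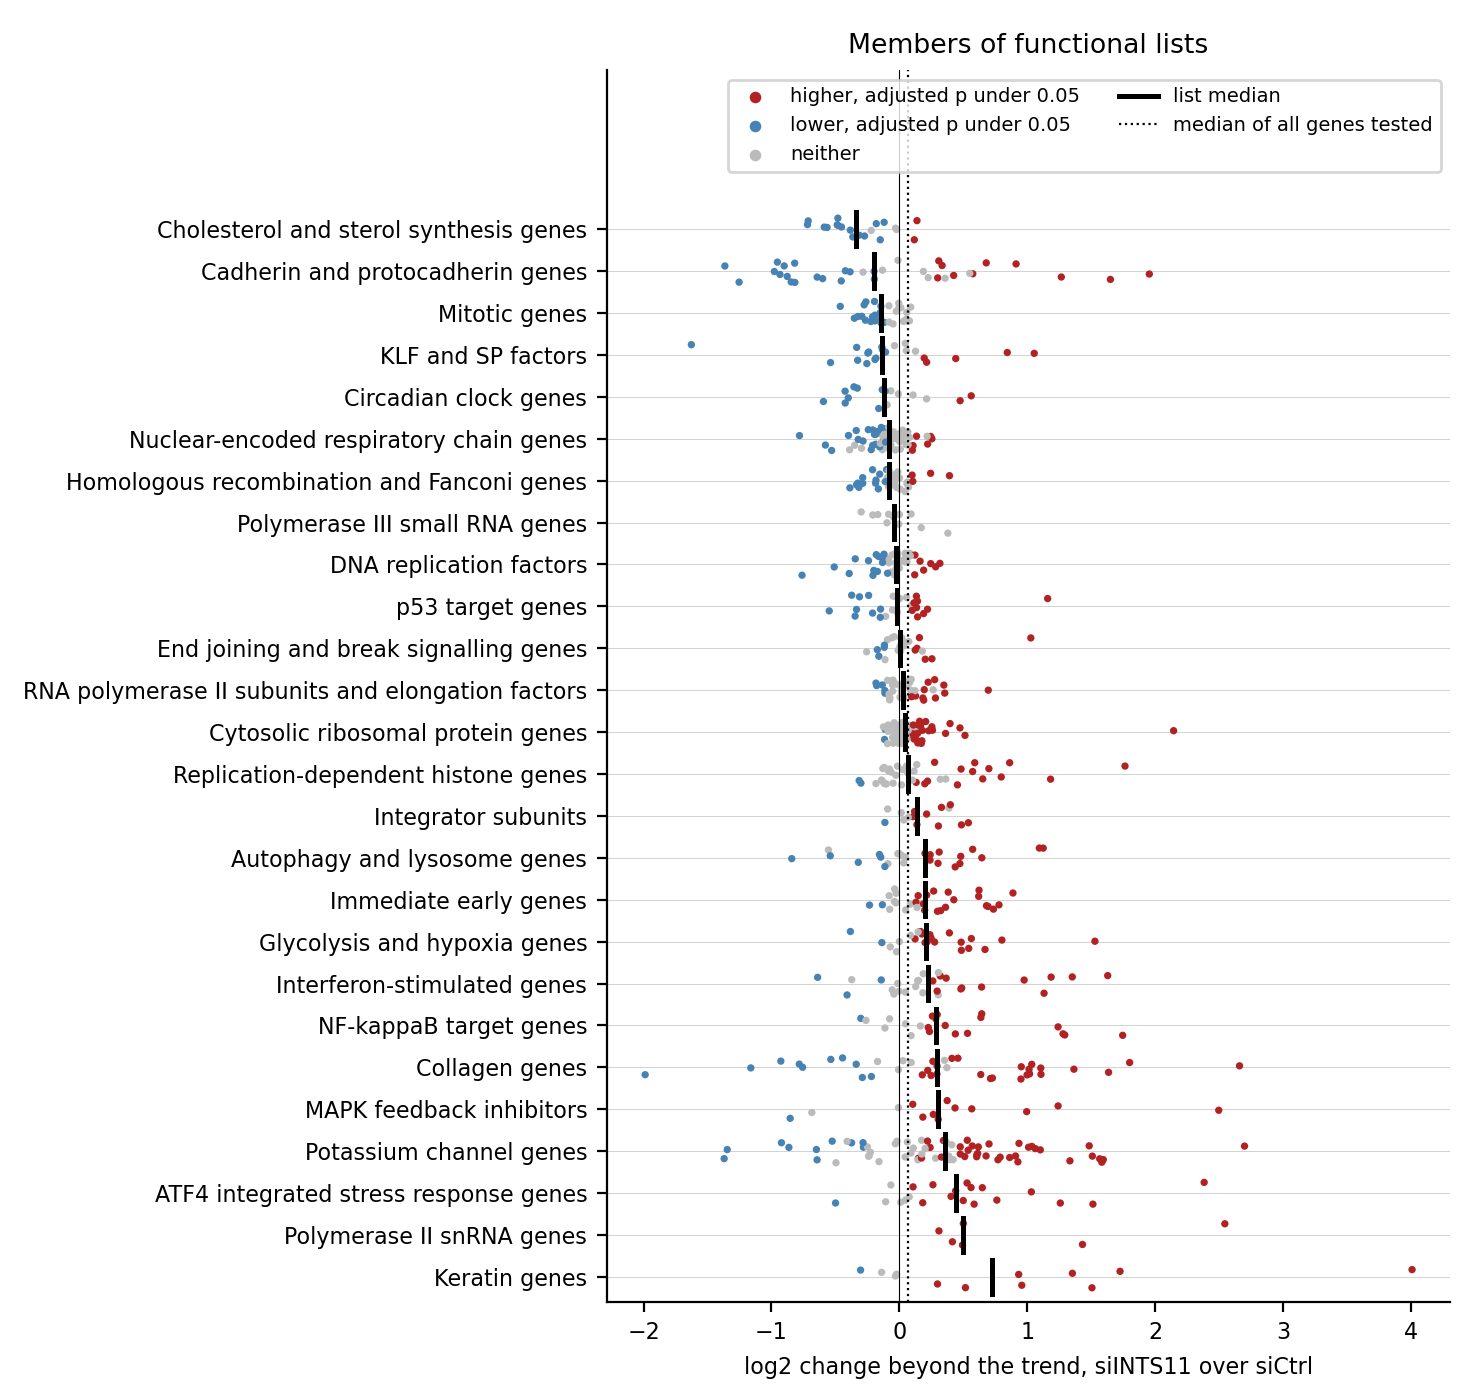
Each point is a tested member of a list, placed by its log2 change beyond the trend (siINTS11 over siCtrl), red where higher and blue where lower at an adjusted p under 0.05. Bars are list medians. The dotted line is the median of all genes tested, 0.07, that of protein-coding genes alone being 0.02. Sterol genes lie to the left (median -0.34) and ATF4 targets, snRNAs and keratins to the right (0.44, 0.50 and 0.72).

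**Figure D4:**
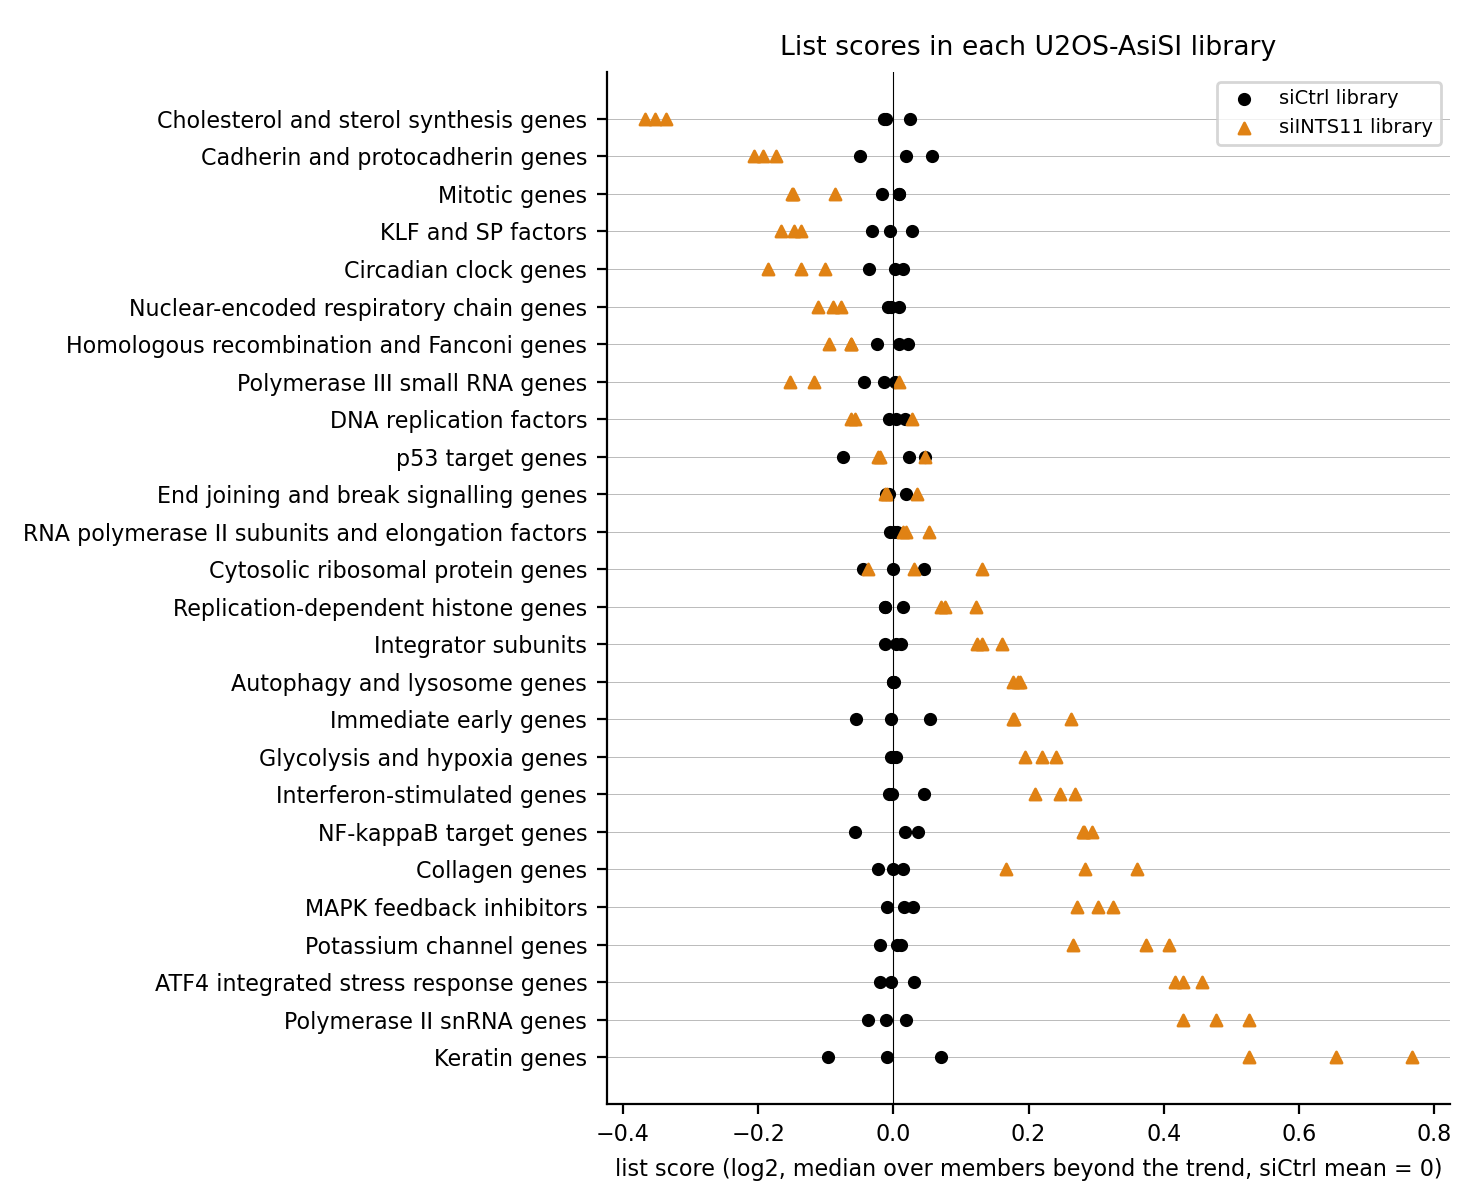
Each row is a list and each point the list's score in 1 library, the log2 median over its members beyond the trend with the siCtrl mean at 0. The siINTS11 libraries (triangles) lie apart from siCtrl (circles) for the sterol, ATF4 and NF-kappaB lists and mix with them for p53 targets, end joining genes and ribosomal protein genes.

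Several housekeeping lists had medians close to that of protein-coding genes (0.02). Cytosolic ribosomal protein genes were higher in 26 and lower in 2 of 81 (median 0.04, and -0.01 with a trend on all gene types), and their library scores overlapped between the siRNAs. Of these 65 held over 0.1 reads per base, and the other 16 had a median of 0.22. Actin and tubulin genes stood higher, with 8 higher and 3 lower of 21 (median 0.17, and 0.04 with a trend on span and level). Proteasome subunits were higher in 8 and lower in 9 of 33 (median -0.03) and mitochondrial ribosomal proteins higher in 9 and lower in 13 of 67 (median 0.02). Aminoacyl-tRNA synthetases, several of which ATF4 also controls, were higher in 7 and lower in 1 of 20 (median 0.06), the exception being SARS1 (-0.39, SE 0.04).

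Genes of the matrix and of adhesion moved in both directions by large amounts. Collagens were higher in 23 and lower in 10 of 39 (median 0.29, and 0.06 on the TMM scale, since their median span is 157 kb). COL15A1, a collagen of basement membrane zones, went from 2.54, 2.66 and 2.28 CPM to 11.7, 13.6 and 13.5 CPM, and COL17A1, of the hemidesmosome, from 9.76, 8.98 and 11.7 CPM to 28.2, 27.9 and 29.4 CPM (1.63, SE 0.07). COL11A1, COL5A1 (-0.93), COL5A2 (-0.76), COL5A3 (-0.54) and COL1A1 (-0.29) were among the 10 that fell. COL11A1 went from 90.1, 74.6 and 78.5 CPM to 17.7, 15 and 15 CPM. Keratins were higher in 8 and lower in 1 of 12 tested of 54 (median 0.72). The median was 0.62 with a trend on span and level, 0.41 among genes that overlap no other and 0.30 with a mean count of 50 or more. Among the members KRT15 rose from 3.44, 3.95 and 4.87 CPM to 12.7, 12.2 and 12.8 CPM (1.5, SE 0.10) and KRT8 by 0.52 (SE 0.05), while KRT17 fell (-0.30, SE 0.05). Among the epithelial markers counted above, EPCAM, CDH1, KRT8 and KRT18 were all read under siCtrl, and their part in the rise of the keratins was not tested.

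Cadherins and protocadherins leaned lower, 17 lower and 10 higher of 34 tested of 87 (median -0.20, and -0.28 with a trend on span and level). CDH11, the cadherin of osteoblasts, went from 143, 140.2 and 127 CPM to 58.3, 53.3 and 57.6 CPM (-0.93, SE 0.04). CDH12 changed by -0.82 (SE 0.04), and PCDH7 rose from 23.6, 22.1 and 24.3 CPM to 45.0, 41.8 and 41.7 CPM (1.27, SE 0.05). Synaptic adhesion and axon guidance genes, the longest list with a median span of 812 kb, had a median of -0.41 on the TMM scale and -0.02 beyond the trend, with 15 higher and 16 lower of 40. TENM3, a teneurin, nevertheless went from 1680.1, 1535 and 1580.3 CPM to 723, 664 and 682 CPM (-0.81, SE 0.03), and SLIT3, a guidance cue, rose from 54.9, 53.6 and 54.8 CPM to 113, 116 and 114 CPM (1.47, SE 0.04). Among lineage genes of the osteoblast 5 rose and 5 fell of 13: the master regulator RUNX2 went from 344, 337 and 319 CPM to 153, 158 and 166 CPM (-0.69, SE 0.04). ALPL, alkaline phosphatase, rose from 3.47, 5.84 and 4.94 CPM to 11.9, 11.4 and 12.2 CPM (1.49, SE 0.12).

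The KLF and SP, circadian clock and zinc finger lists were more often lower than higher. The immediate early list above, which also holds transcription factors, was mostly higher. KLF and SP factors were lower in 12 and higher in 5 of 21 (median -0.13), with KLF11 at -0.54 (SE 0.05) and SP4 at 0.84 (SE 0.04). Circadian clock genes were lower in 9 and higher in 2 of 16 (median -0.12). ARNTL, the BMAL1 subunit of the activator, went from 248, 249 and 229 CPM to 154, 143 and 153 CPM (-0.42, SE 0.04), CRY2, a repressor, changed by -0.42 (SE 0.05), and NR1D1, which represses ARNTL, rose by 0.47 (SE 0.06). Zinc finger genes named ZNF were lower in 135 and higher in 77 of 391 (median -0.05).

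Ion channels and transporters differed. Potassium channel genes were higher in 35 and lower in 10 of 68 (median 0.35, and 0.19 with a trend on span and level). KCNQ3, of the M current, rose from 196, 193 and 209 CPM to 329.7, 308 and 303 CPM (1.03, SE 0.04), so the rise was not limited to weakly read channels, and KCNS3 fell from 37.5, 37.1 and 38.6 CPM to 12.2, 11.3 and 10.5 CPM (-1.35, SE 0.06). Solute carriers had a median close to that of all genes tested, with 112 higher and 74 lower of 267 (median 0.08). ADAM and ADAMTS proteases were higher in 19 and lower in 5 of 34 (median 0.25), among them ADAM19, from 584, 554 and 568 CPM to 685, 682 and 661 CPM (0.59, SE 0.03).

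Families were also formed from gene symbols alone, by the letters before the number, among protein-coding genes whose mean count reached 20. Of 154 families with at least 10 genes, the lowest median was that of IFT, intraflagellar transport (-0.36; 9 lower and 3 higher of 13). IFT57 went from 54.9, 50.6 and 49.7 CPM to 33.0, 29.9 and 29.1 CPM (-0.59, SE 0.05), and the exceptions were IFT27 (0.82), IFT140 (0.49) and IFT46 (0.15), which rose. The next families by median were HSD (-0.26; 5 lower and 2 higher of 10), ARL, small GTPases of membranes and cilia (-0.24; 14 lower and 2 higher of 22), SEC, coat and translocation proteins of the secretory pathway (-0.23; 17 lower and 3 higher of 24), and EXOC, the exocyst and its relatives (-0.23; 8 lower and 1 higher of 11). SEC24D, a cargo adaptor of COPII vesicles, went from 281, 247 and 262 CPM to 113, 104 and 106 CPM (-1.01, SE 0.04). SEC23A (-0.40), SEC61B (-0.31) and SEC31A (-0.27) also fell. ARL2BP changed by -0.83, EXOC6B by -0.53 (SE 0.03), and the rise in EXOC was EXOC3L2, described above. NEK (-0.20), CDH (-0.20) and ZFP (-0.18) complete the 8 lowest.

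The highest family medians were those of KCNJ, inward rectifier potassium channels (0.79; 8 higher and 1 lower of 11), CACNA, voltage-gated calcium channel subunits (0.64; 7 higher and 2 lower of 10), and DNAH, axonemal dynein heavy chains (0.56; 9 higher and 2 lower of 12). Their median siCtrl levels were 1.54, 10.5 and 6.59 CPM, against 26.4 CPM over all protein-coding genes tested. No value adjusted for level was computed for families. KCNJ5 went from 2.05, 2.37 and 2.81 CPM to 7, 6.33 and 6.55 CPM (1.51, SE 0.12). CACNA1I, a T-type channel, went from 1.49, 1.51 and 1.31 CPM to 4.27, 4.57 and 4.58 CPM (1.91, SE 0.14), and DNAH3 from 0.660, 0.834 and 0.636 CPM to 1.76, 1.85 and 1.34 CPM (1.54, SE 0.21). CACNA and DNAH genes are long, with median spans of 337 and 279 kb, so these rises run against the trend. KRT (0.52), IL (0.42), RGS (0.40), MMP (0.40) and CHST (0.37) follow, at median siCtrl levels from 2.31 CPM (MMP) to 10.3 CPM (RGS). In IL, which joins interleukins with their receptors, 24 were higher and 7 lower of 44, IL24 from 1.32, 0.995 and 1.05 CPM to 5.52, 4.52 and 5.04 CPM (2.02, SE 0.16).

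Loci were compared as windows of 1 Mb with at least 8 tested genes, 861 in all. Their medians lay between -0.21 (5th percentile) and 0.37 (95th percentile). In the order given below, the 5 highest windows had median siCtrl levels of 1.77, 2.54, 4.98, 16.8 and 1.77 CPM. The 5 lowest had median levels from 6.48 to 49.2 CPM. No value adjusted for level was computed for windows, so the part of level in their medians was not tested. The highest window, on chromosome 11 (128000001 to 129000000, median 1.14, 7 of 8 higher), held FLI1, ETS1, KCNJ1 and KCNJ5. FLI1, an ETS factor of blood and vessel cells, went from 0.799, 0.834 and 1.05 CPM to 3.09, 4.12 and 3.38 CPM (2.26, SE 0.18), its neighbour ETS1 stood at 0.31, and TP53AIP1 fell (-1.83). The window on chromosome 3 (46000001 to 47000000, median 0.87, 9 of 12 higher) held LTF (1.33), LRRC2 (0.98), TMIE (1.96) and CCR5AS (2.42). On chromosome 10 (5000001 to 6000000, median 0.82, 13 of 17 higher) AKR1C3, an aldo-keto reductase, rose by 1.41 with its neighbours AKR1C7P (1.16) and AKR1C8P (1.01), which are copies that may share reads. On chromosome 2 (230000001 to 231000000, median 0.72, 8 of 9 higher) the SP100 family of nuclear body genes rose as a cluster. SP140 went from 9.66, 8.70 and 11.6 CPM to 51.6, 48.1 and 44.6 CPM, SP110 rose by 0.79, SP100 by 0.31 and SP140L by 0.21, and CAB39 further along fell (-0.60). The fifth, on chromosome 1 (234000001 to 235000000, median 0.70, 9 of 12 higher), held mostly non-coding genes such as LINC00184 (2.24) beside TARBP1 (0.85).

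The lowest window, on chromosome 15 (55000001 to 56000000, median -0.58), had 7 of 9 genes lower and 0 higher. PRTG went from 15.9, 16.4 and 17.0 CPM to 7.21, 6.88 and 5.99 CPM (-1.0, SE 0.08), PYGO1, a cofactor of Wnt signalling, from 24.9, 25.6 and 23.2 CPM to 13.9, 11.3 and 12.2 CPM (-0.85, SE 0.07), RAB27A changed by -0.60, and NEDD4 (0.03) did not pass. On chromosome 6 the window 46000001 to 47000000 (median -0.55, 5 of 8 lower) held CYP39A1, which went from 11, 10.2 and 9.99 CPM to 3.16, 2.35 and 3.24 CPM (-1.56, SE 0.11), and 1 strong rise, ADGRF5 (1.89). The window 83000001 to 84000000 of the same chromosome (median -0.54, 6 of 9 lower) held SNAP91 (-0.89), and that on chromosome 3 (138000001 to 139000000, median -0.54, 7 of 9 lower) held FAIM (-0.80), CEP70 (-0.56) and MRAS (-0.54). The last of the 5, on chromosome 1 (230000001 to 231000000, median -0.42, 6 of 8 lower and 2 higher), held C1orf198, TTC13 (-0.85) and GALNT2, which rose (0.34).

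**Figure D5:**
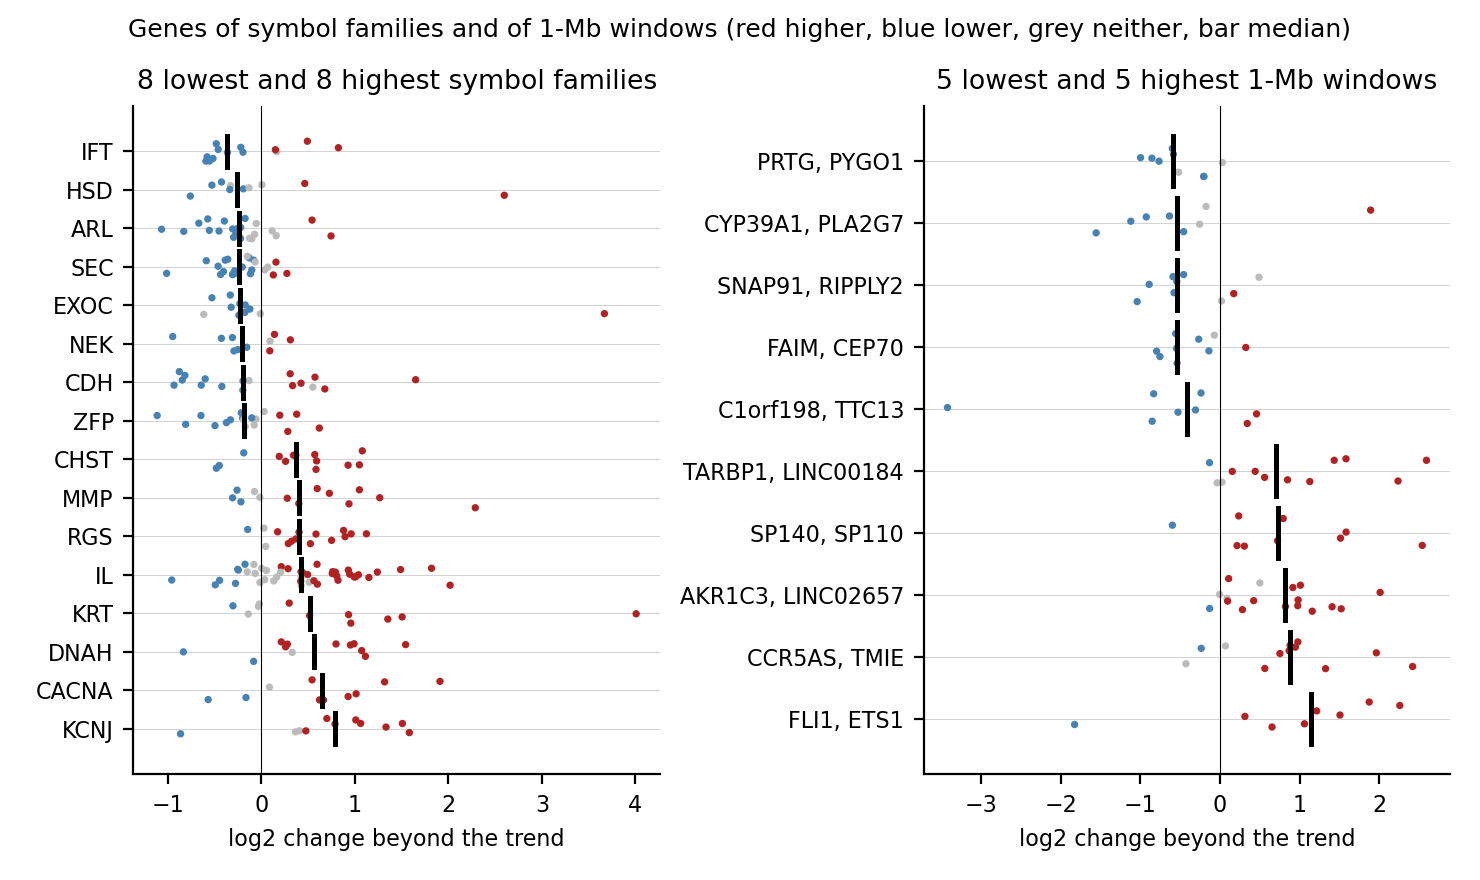
Points are genes of the 8 lowest and 8 highest symbol families (left) and of the 5 lowest and 5 highest 1-Mb windows, named by leading genes (right), placed by log2 change beyond the trend; red is higher and blue lower at an adjusted p under 0.05, grey neither, and bars are medians. Every family and window shown from the high end has at least 1 member below 0.

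Non-coding genes as a class stood above the trend. Of 4692 long non-coding genes 2380 were higher and 760 lower (median 0.36), against 4843 and 4139 of 13956 protein-coding genes (median 0.02). The direction was shared by genes named LINC (430 higher and 117 lower of 773, median 0.48), antisense genes named AS (392 and 69 of 657, median 0.40), microRNA host genes (21 and 6 of 38, median 0.37) and divergent transcripts named DT (46 and 8 of 92, median 0.32). With a trend on span and level these medians were 0.34, 0.30, 0.25 and 0.19. Processed pseudogenes, mostly intronless copies, went the other way (41 higher and 79 lower of 235, median -0.28, and -0.04 on the TMM scale). The strand setting of the counting is not stated, so reads of an antisense gene and of its partner may not be apart.

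CES1P2 is a pseudogene next to the carboxylesterase genes (chromosome 16, 55728115 to 55750111, plus strand), and related copies may share reads with it. Among non-coding genes that met the filters for naming it had the largest rise, from 0.869, 0.481 and 0.823 CPM to 23.8, 25.5 and 24.4 CPM (5.09, SE 0.12). AL392086.3, with a span of 294 kb (chromosome 10, 6824275 to 7118469, minus strand), went from 8.79, 9.66 and 9.47 CPM to 67.9, 60.5 and 64.3 CPM (3.16, SE 0.06). LINC01524 went from 30.6, 32.2 and 32.6 CPM to 110.0, 108 and 110.1 CPM (2.17, SE 0.05) and NR2F2-AS1 from 37.2, 37.6 and 37.0 CPM to 86.5, 78.7 and 84.7 CPM (1.52, SE 0.04), so strong rises also occurred at well-read non-coding genes. LINC01170, with a span of 379 kb, fell from 24.2, 17.6 and 19.0 CPM to 2.91, 2.80 and 2.71 CPM (-2.47, SE 0.11). Its neighbour AC025465.1 on the same strand of chromosome 5 fell as well, from 5.70, 4.81 and 4.12 CPM to 0.933, 0.679 and 0.916 CPM (-2.41, SE 0.17).

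Genes near silence made up much of the 2-fold rises. Of 3724 tested genes below 1 CPM under siCtrl, 1285 rose at least 2-fold, 616 of them long non-coding and 467 protein-coding. Choosing genes by a low siCtrl value favours rises, and no test was made of that share. The nearest gene upstream on the same strand ended within 10 kb and was itself tested for 10.7% of the 1285. That share was 17.5% of all 3724 and 23.4% of the 1902 that were not called higher. The median distance to the nearest annotated gene upstream, tested or not, was 38.2 kb, against 27.8 kb and 21.6 kb in those sets. An overlap with another gene on the strand was about as common in the raised genes as in all (21.2% against 20.6%).

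The sites of the nuclease were looked for in promoters, because the same cells carried AsiSI in both groups. Its recognition site GCGATCGC, the same on both strands, lay in 73 of 35116 RefSeq windows (0.208%), and 51 tested genes had such a window. Of these 22 were higher and 17 lower with a median of 0.07, against 4412 and 3451 of 12112 tested genes with any window (median 0.04). Both directions occurred among them. LAMB1, a laminin chain of the basement membrane (chromosome 7, 107923799 to 108003187, minus strand, with an overlapping gene), went from 116 to 197.9 CPM on average (0.98, SE 0.04). C1orf198, an uncharacterised gene (chromosome 1, 230837119 to 230869589, minus strand), went from 80.6 to 43.5 CPM (-0.83, SE 0.06). Their windows, chr7:108003112-108003411 and chr1:230868472-230868771 (both minus strand), are shown as 1 member of each direction, with the site in capitals 171 bases before the start of LAMB1 and 27 bases after 1 of the 2 starts of C1orf198. Whether these sites were cut was not measured, and both groups had the nuclease.
LAMB1: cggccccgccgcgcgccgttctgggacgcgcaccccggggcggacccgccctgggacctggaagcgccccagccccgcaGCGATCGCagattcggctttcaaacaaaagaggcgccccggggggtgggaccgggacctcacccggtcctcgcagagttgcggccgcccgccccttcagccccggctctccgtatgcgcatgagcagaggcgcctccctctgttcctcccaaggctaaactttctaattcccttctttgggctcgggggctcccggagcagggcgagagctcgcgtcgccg
C1orf198: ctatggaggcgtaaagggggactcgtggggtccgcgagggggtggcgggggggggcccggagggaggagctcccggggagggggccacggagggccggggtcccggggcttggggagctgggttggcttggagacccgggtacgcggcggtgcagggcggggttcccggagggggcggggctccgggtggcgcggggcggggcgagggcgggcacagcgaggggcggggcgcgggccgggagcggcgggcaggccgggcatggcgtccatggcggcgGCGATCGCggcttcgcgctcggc

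The parental U2OS libraries, which have neither nuclease nor OHT and were compared in the same way, served only to find where the effect differed. The interaction of siRNA and line passed for 822 of 21521 genes (3.82%). Single libraries weighed on that count, which was 372 without U2OS siINTS11 replicate 3, 408 without U2OS siCtrl replicate 1, 436 without U2OS siINTS11 replicate 1, 447 without U2OS-AsiSI siCtrl replicate 1 and 483 without U2OS-AsiSI siINTS11 replicate 3. All 24 genes with the largest changes had the same direction in U2OS, and 3 of them passed the test of the difference. ACSBG1 rose by 3.24 in U2OS-AsiSI and 2.06 in U2OS (difference 1.18, edgeR adjusted p 0.0149). GUCY1A2 changed by -2.34 and -1.94 (difference -0.40, edgeR adjusted p 0.0186) and HAPLN1 by -1.90 and -1.34 (difference -0.56, edgeR adjusted p 0.000478). Among the lists, the sterol median was -0.37 in U2OS, that of ATF4 targets 0.38 and that of the respiratory chain -0.02, and differences of list medians were not tested.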

How the data were processed

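TT-seq read counts per gene were used as deposited by the authors. Per the submitters' processing notes, reads were handled with Trimmomatic 0.36, STAR 2.7, deepTools and featureCounts on hg38; the strand setting is not given in the sources used here. Groups and replicate numbers came from sample titles. Genes passing edgeR's filter on low counts were tested with edgeR 4.0.16 (quasi-likelihood test, TMM scaling, Benjamini-Hochberg adjustment, threshold 0.05), 3 against 3 libraries. For changes relative to span, a lowess curve (width 0.3) of log2 level against log10 span over protein-coding genes averaging 50 counts or more was added per library as an offset. Per-library CPM used TMM factors from 0.918 to 1.086. The correlation of same-numbered libraries' deviations was 0.355, -0.037 and -0.016, so numbers were not treated as pairs. In simulated data 200 of 19545 genes were changed, all of them drawn from genes averaging 100 counts or more. The fit relative to span called 100% of their 2-fold and 99% of their 1.5-fold changes, with 7% of calls false. Recovery at weaker genes was not simulated. Far more genes were called in the data than were changed in the simulation, so the 7% may not carry over. DESeq2 1.42.0 and other settings were alternatives. Gene types were matched by name for 56506 of 60583 genes.

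Members and lists were chosen with earlier results of these data known. The rule named INTS11, the 12 largest rises and 12 largest falls beyond the trend among protein-coding genes that passed, with at least 100 counts on average in the higher group, under 0.1 reads per base and no overlap of the groups. By the same filters it named the 6 largest rises at long and falls at short spans and the 6 largest non-coding changes each way. It added up to 3 members per list with 1 moving the other way, and the leading 2 per family or window. Other members were named after their values were seen. Promoter sequences are RefSeq's, GRCh38.p14. Families needed 10 genes and windows 8. Some genes are not reported here.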

Additional observations from a re-analysis of the deposited data

Results flagged for a closer look

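The genes below were described above and passed the test of the difference in siINTS11 effect between U2OS-AsiSI with OHT and parental U2OS (edgeR's quasi-likelihood test, adjusted p from 0.000348 to 0.0492). Each value is the log2 change in U2OS-AsiSI minus that in U2OS, relative to span. The 2 lines also differ in OHT and in the nuclease, which cannot be told apart here, and leaving out 1 library moved the number of genes that differ from 822 to between 372 and 1098.

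Of the genes raised in U2OS-AsiSI, the difference was 1.18 for ACSBG1, 0.34 for SLIT3, 0.40 for KCNQ3, 0.32 for DUSP5 and 0.16 for ADAM19, all risen further than in U2OS. TARBP1 (-0.42) and AKR1C8P (-0.50) rose less than in U2OS. PPP1R10 stood at 0.65 in U2OS-AsiSI and -0.14 in U2OS, a difference of 0.79.

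Of the genes that fell, the difference was -0.56 for HAPLN1, -0.40 for GUCY1A2, -0.48 for TP53INP1, -0.31 for CDC25C, -0.28 for MAD2L1, -0.22 for HSF2, -0.24 for KLF11, -0.42 for IFIT5 and -0.14 for TENM3, each lower in U2OS-AsiSI than in U2OS. ARNTL (0.33) and SEC24D (0.25) fell less than in U2OS. BTG2 stood at -0.23 in U2OS-AsiSI and 0.19 in U2OS, a difference of -0.42. SPARC (0.25) and MCM5 (0.19) did not pass in U2OS-AsiSI and stood at -0.25 and -0.22 in U2OS.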

How the results depend on the processing

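Counts of genes changed stayed within 1.5 times of the reported ones under the alternatives run, with these exceptions. Scaling by library totals alone left 4024 genes lower on the TMM scale. With the mean count held to 50 or more, at least 2-fold changes numbered 1168 on the TMM scale and 1112 relative to span, from fewer genes tested. DESeq2 called 12162 and 11277. Leaving out 1 library gave 12705 to 13777 and 12180 to 12851. With the replicate number as a block 14172 and 13334 genes were called, and the numbers do not pair the libraries. The count of genes that differ between the lines, 822, ran from 372 (without U2OS siINTS11 replicate 3) to 1098 (without U2OS siCtrl replicate 2); it was 408 without U2OS siCtrl replicate 1, 436 without U2OS siINTS11 replicate 1, 447 without siCtrl replicate 1 and 483 without siINTS11 replicate 3 of U2OS-AsiSI.

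INTS11 relative to span was -0.22 with DESeq2 and no longer passed (adjusted p 0.0654), and ran from -0.24 to -0.14 with 1 library left out, where 3 of the 6 fits lost the call (without siCtrl replicate 2, siINTS11 replicate 1 or siINTS11 replicate 2). For the genes named in the text other than INTS11, 3361 of 3405 values under alternatives were counted as unchanged. A further 40 lost the call, 4 gained it and 0 reversed. Direction was compared only for genes that passed in the reported fit. A turn of sign in a gene that did not pass there was counted as unchanged. The calls lost were in INTS8, BRCA1, CCL2, DUSP6, EPCAM, HMGCS1, IFT46 and PSAT1, and those gained in DUSP1, JUN and MTHFD2. Of 914 list medians 28 changed sign, in 13 lists, among them osteoblast lineage genes (0.13), HOX genes (0.11, and -0.10 with a trend on span and level) and olfactory receptors (-0.04, and 0.40 with a mean count of 50 or more). Depth limits the weakest genes: a fold from under 1 CPM rests on few reads, as in LAPTM5 with 13, 14 and 9 counts under siCtrl. The strand setting, overlapping genes and near-identical copies limit antisense genes, pseudogenes and small RNAs. Read density over 0.1 per base occurred in 1538 genes.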
